A study of Mus musculus with 48 samples.

Results

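Lipid-associated macrophages are cells that take up and break down lipid in fatty tissue and injured liver, and 10 genes that mark them in published cell atlases were followed here in mouse liver: Gpnmb, Trem2, Spp1, Cd9, Fabp5, Itgax, Lgals3, Ms4a7, Cx3cr1 and Clec7a. They were found by gene identifier among 55416 genes counted, and all 10 passed the filter on low counts. RNA was sequenced from 48 livers of mice labelled C57BL/6J, 8 in each of 6 groups, after 8 weeks of western diet with 0.2% cholesterol that ended at 16 weeks of age. In the first study the mice were wild-type (DN:WT), heterozygous (DN:HET) or homozygous (DN:HOM) for W441R, a knock-in that turns the nuclear receptor LXRα into a dominant-negative form. In the second they were wild-type (KO:WT), heterozygous (KO:HET) or homozygous (KO:HOM) for a null allele of LXRα. Both alleles were carried in every tissue, so macrophages and hepatocytes had the same genotype. Heterozygous parents gave littermates of the 3 genotypes within a study. The knock-in mice were male and bred at another site than the knockout mice, which had been crossed to C57BL/6 from a mixed background, so allele, site and stock cannot be told apart between the studies.

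LXRα is a receptor for oxidised cholesterol that switches on cholesterol export and lipid synthesis genes in hepatocytes and macrophages. When resident liver macrophages, the Kupffer cells, are lost or overwhelmed by lipid, monocytes enter from the blood and can take on the lipid-associated state. TREM2 is a lipid-sensing receptor of that state, GPNMB, CD9 and CD11c (the product of Itgax) lie in its membranes, and osteopontin (Spp1) and galectin-3 (Lgals3) are released by it. None of the genes belongs to macrophages alone. Bile duct cells also make Spp1 and Cd9, dendritic cells Itgax and Clec7a, and hepatocytes and epithelia can make Fabp5. In whole liver, more cells of a type and more RNA per cell cannot be told apart.

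Reads on genes lay between 5332897 and 16961379 per liver with a median of 15879971, and 2 livers, KO:HET animal 3 and KO:HOM animal 17, had under 10000000. Levels are given as CPM, reads of a gene per 1000000 reads after TMM scaling over all livers. The library labelled DN:WT animal 10 and the library labelled DN:HOM animal 12 stood apart from their groups. Animal 10 lay above every other DN:WT liver for all 10 genes and within the range of the other DN:HOM livers for 7 of them. Animal 12 lay below every other DN:HOM liver for all 10 and within the range of the other DN:WT livers for all 10. Nr1h3, the gene of LXRα, was at 71.2 CPM in animal 10, against 82.0 to 96.8 CPM in the other DN:WT livers and 68.4 to 77.3 CPM in the other DN:HOM livers, and at 86.8 CPM in animal 12. Neither liver was moved, and neither is among the livers of a published bile acid gene panel of the same mice. Whether the labels of these 2 libraries were exchanged was not tested, and an exchange would change what every value over all 48 livers means. Levels by group and fold changes are therefore given over the other 46 livers, followed for each of the 10 genes by the change in DN:HOM over all 48. In KO:HET livers Nr1h3 fell to between 48.3 and 65.4 CPM and in KO:HOM livers to between 25.2 and 31.1 CPM, from 81.4 to 108 CPM in KO:WT, in the order of the labels.

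The 10 genes lie on 8 chromosomes of GRCm39. Promoters are shown for Gpnmb, with the largest fold change in DN:HOM livers, Itgax, the member whose call in DN:HET livers held whichever liver was left out, and Trem2, the lipid receptor. Each runs 5′ to 3′ from 250 bases before to 50 after the start of the annotated main transcript, on the strand of the gene. Capitals mark the searched motifs, which are TGACTCA or TGAGTCA (bound by AP-1) in Gpnmb and Itgax, and GAGGAAG (a PU.1-type core, read here on the opposite strand) in Trem2. The Gpnmb promoter is chr6:49013176-49013475, that of Itgax chr7:127728418-127728717 and that of Trem2 chr17:48653179-48653478, all on the plus strand.
Gpnmb: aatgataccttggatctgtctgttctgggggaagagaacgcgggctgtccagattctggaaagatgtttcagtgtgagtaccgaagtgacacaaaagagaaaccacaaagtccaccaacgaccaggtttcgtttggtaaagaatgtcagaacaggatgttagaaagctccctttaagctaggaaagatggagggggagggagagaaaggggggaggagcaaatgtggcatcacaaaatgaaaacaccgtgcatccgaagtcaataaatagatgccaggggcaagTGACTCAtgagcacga
Itgax: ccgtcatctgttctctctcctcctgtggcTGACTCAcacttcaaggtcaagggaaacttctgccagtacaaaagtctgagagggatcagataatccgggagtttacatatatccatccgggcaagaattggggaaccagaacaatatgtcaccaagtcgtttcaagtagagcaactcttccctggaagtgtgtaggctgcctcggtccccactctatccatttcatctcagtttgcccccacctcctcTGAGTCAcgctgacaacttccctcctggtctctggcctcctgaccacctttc
Trem2: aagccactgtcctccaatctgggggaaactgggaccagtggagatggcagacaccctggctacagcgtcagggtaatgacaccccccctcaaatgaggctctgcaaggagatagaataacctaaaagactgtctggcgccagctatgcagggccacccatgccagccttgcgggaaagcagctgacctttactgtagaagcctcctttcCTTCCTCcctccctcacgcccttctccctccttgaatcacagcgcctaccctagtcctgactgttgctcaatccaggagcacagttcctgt

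Counted from the transcript start, with negative positions before it, the AP-1 motif began at 35 in Gpnmb, and at -221 and -2 in Itgax. It was found in these 2 of 10 members and in 4.70% of 21770 promoters of the same length, both strands searched. GAGGAAG was found in 1 member, at -41 in Trem2, and in 13.2% of promoters. CATGTG, one form of the MiT/TFE motif, was found at -234 in Spp1 and at 18 in Cd9, and in 11.96% of promoters. The other form, CACGTG, was in 0 members and in 7.81% of promoters, and TTGCGCAA, a C/EBP motif, in 0 members and in 0.211%. A match or its absence describes the letters of these windows only. Spp1 overlaps Gm42793 on its own strand, so reads in the shared stretch are uncertain. Cd9 and Cx3cr1 overlap transcripts on the opposite strand, from which the counts, taken by strand, are largely separate.

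In DN:HOM livers all 10 genes rose, by a median of 4.32 on the log2 scale, against -0.01 for all genes tested, and in every one of them the 7 DN:HOM livers lay above all 7 DN:WT livers. Among all 15711 genes tested 29.1% were called higher in this comparison, and 17.7% were called higher with groups that did not overlap. In KO:HOM livers 8 of the 10 rose, with a median over the 10 of 2.13 against -0.02 for all genes, and 11.5% of genes were called higher. Of these, Gpnmb, Itgax, Ms4a7 and Clec7a did not overlap between the groups, against 2.18% of all genes. Cd9 and Fabp5 were the exceptions in KO:HOM livers. Calls are at an adjusted p under 0.05, here and below, by the quasi-likelihood test of edgeR, with p-values adjusted after Benjamini and Hochberg over all genes. With all 48 livers fitted the 10 calls remained in DN:HOM, with a median of 2.19 (23% of genes called higher), and KO:HOM had 6 calls (8.79%), without those of Trem2 and Spp1. The separation of DN:HOM from DN:WT livers did not remain, and the groups overlapped in all 10 genes. From 0 (Spp1, Fabp5 and Ms4a7) to 4 (Cx3cr1) of the 8 DN:HOM livers then lay above every DN:WT liver.

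**Figure D1:**
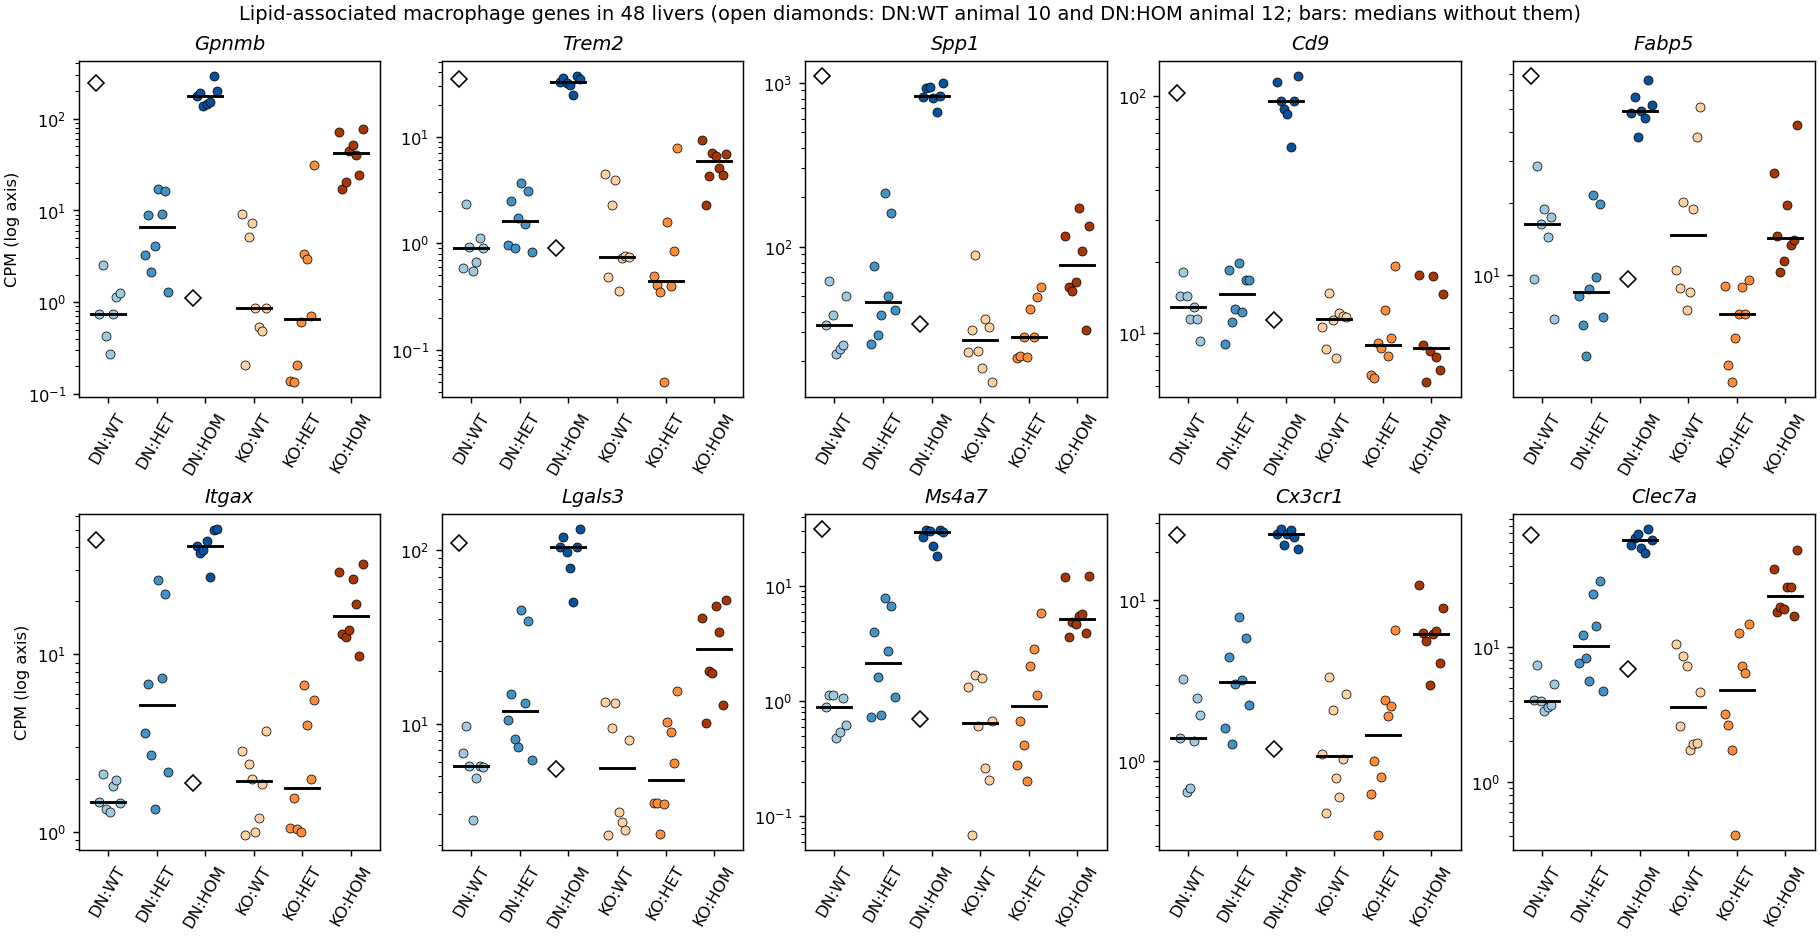
CPM of the 10 genes (log axis) in each of 48 livers by group, with bars at the medians over 46 livers. Open diamonds are the libraries labelled DN:WT animal 10 and DN:HOM animal 12, which lie in the range of, or near, the opposite homozygous genotype, and the 1 liver with 0 reads of Trem2 is drawn at 0.05 CPM.

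The genes of membrane proteins come first. Gpnmb, a glycoprotein of phagosomes and lysosomes in lipid-laden macrophages, was at 0.272, 0.741 and 2.53 CPM (lowest, median and highest) in DN:WT livers, a level that rested on 4 to 38 reads. In DN:HET livers it was at 1.29, 6.52 and 16.96 CPM and in DN:HOM livers at 137, 178 and 290 CPM. These 3 groups formed rising steps with a gap only below DN:HOM. KO:WT livers had 0.206, 0.868 and 9.27 CPM, KO:HET livers 0.135, 0.657 and 31.1 CPM, and KO:HOM livers 17.1, 42.5 and 76.3 CPM. All KO:HOM livers were above all KO:WT livers, and 1 KO:HET liver, animal 9, lay among the KO:HOM livers. The rise was 181-fold in DN:HOM (log2 7.50, SE 0.84, adjusted p = 3.1e-10) and 14.3-fold in KO:HOM (log2 3.83, SE 0.66, adjusted p = 4.7e-05). The DN effect was larger by 3.67 on the log2 scale (SE 1.05, adjusted p = 0.0054). With animals 10 and 12 in their labelled groups the DN:HOM change of Gpnmb was 5.02-fold (log2 2.33, SE 0.94, adjusted p = 0.038), and its DN effect minus its KO effect was -1.50 (adjusted p = 0.50).

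Trem2, whose receptor binds lipids and lipoproteins and signals through the adaptor of Tyrobp, was at 0.545, 0.904 and 2.33 CPM in DN:WT, 0.837, 1.63 and 3.69 CPM in DN:HET and 24.3, 32.6 and 36.7 CPM in DN:HOM livers. DN:HET livers spread over and just above the DN:WT range, and DN:HOM livers stood clear of both. In the knockout study it was at 0.359, 0.751 and 4.46 CPM in KO:WT and 2.28, 5.86 and 9.39 CPM in KO:HOM livers. KO:HET livers had a median of 0.447 and a highest value of 7.79 CPM, and animal 3 had 0 reads, which at its depth allows up to 0.604 CPM. The KO:HOM range therefore began inside that of KO:WT, with 5 of 8 livers above all of them. The change was 31.7-fold in DN:HOM (log2 4.99, SE 0.54, adjusted p = 1.6e-10) and 3.42-fold in KO:HOM (log2 1.77, SE 0.47, adjusted p = 0.0053), and the effects differed by 3.21 (SE 0.71, adjusted p = 3.8e-04). With all 48 livers the DN:HOM change of Trem2 was 5.31-fold (log2 2.41, SE 0.68, adjusted p = 0.0038), its KO:HOM value was again 1.77, at an adjusted p of 0.10, and the difference of 0.64 was not called.

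Clec7a encodes Dectin-1, a receptor for fungal glucans. It was at 3.34, 3.995 and 7.40 CPM in DN:WT, 4.70, 10.3 and 30.9 CPM in DN:HET and 50.1, 63.0 and 74.8 CPM in DN:HOM livers. The DN:HET livers ran from the DN:WT range to well above it, and 6 of 8 exceeded every DN:WT liver. It was at 1.72, 3.62 and 10.5 CPM in KO:WT, 0.403, 4.84 and 14.95 CPM in KO:HET and 17.1, 24.1 and 52.4 CPM in KO:HOM livers, where the homozygous livers lay above both other genotypes. Clec7a rose 13.9-fold in DN:HOM (log2 3.80, SE 0.44, adjusted p = 8.6e-10) and 5.67-fold in KO:HOM (log2 2.504, SE 0.40, adjusted p = 1.9e-05). Its effects differed by 1.29 (95% interval 0.17 to 2.42), which did not pass the threshold after adjustment (adjusted p = 0.076). With all livers fitted the DN:HOM rise was 4.36-fold (log2 2.13, SE 0.55, adjusted p = 0.0017), and the difference was -0.38, not called.

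Cx3cr1 is the receptor for fractalkine and is found on patrolling monocytes and tissue macrophages. DN:WT livers held 0.642, 1.41 and 3.27 CPM, DN:HET livers 1.29, 3.10 and 7.90 CPM and DN:HOM livers 20.8, 25.7 and 27.5 CPM. DN:HOM livers lay close together, far above the others. KO:WT livers held 0.481, 1.08 and 3.32 CPM, KO:HET livers 0.348, 1.46 and 6.53 CPM and KO:HOM livers 2.96, 6.20 and 12.4 CPM. In the knockout study 7 of 8 homozygous livers were above all wild-type livers. The fold changes were 14.9 in DN:HOM (log2 3.89, SE 0.44, adjusted p = 3.6e-10) and 4.36 in KO:HOM (log2 2.13, SE 0.41, adjusted p = 1.8e-04), with a difference of 1.77 (SE 0.59, adjusted p = 0.017). In the fit of all 48 livers Cx3cr1 rose 4.61-fold in DN:HOM (log2 2.20, SE 0.56, adjusted p = 0.0015), and the difference was 0.08, not called.

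For Itgax, the integrin chain CD11c, DN:WT livers lay between 1.29 and 2.13 CPM with a median of 1.48. In DN:HET livers it was at 1.36, 5.23 and 26.4 CPM and in DN:HOM livers at 27.4, 40.8 and 50.5 CPM. In this gene 7 of 8 heterozygous livers exceeded every wild-type liver, and the highest of them lay just below the lowest homozygous liver. KO:WT livers had 0.962, 1.93 and 3.70 CPM, KO:HET livers 1.01, 1.77 and 6.73 CPM and KO:HOM livers 9.75, 16.5 and 32.2 CPM, and here the homozygotes lay above every other liver with a gap. Itgax rose 25.2-fold in DN:HOM (log2 4.65, SE 0.50, adjusted p = 1.0e-10) and 9.76-fold in KO:HOM (log2 3.29, SE 0.45, adjusted p = 1.7e-06). The difference of 1.37 (95% interval 0.09 to 2.65) was not past the threshold (adjusted p = 0.0996). With animals 10 and 12 included, the DN:HOM change of Itgax was 5.08-fold (log2 2.35, SE 0.63, adjusted p = 0.0023), and the difference was -0.94, not called.

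Ms4a7, a membrane protein gene used to mark monocyte-derived macrophages, was at 0.477, 0.887 and 1.14 CPM in DN:WT, 0.735, 2.17 and 7.90 CPM in DN:HET and 18.2, 29.5 and 31.1 CPM in DN:HOM livers. KO:WT livers held 0.0687, 0.642 and 1.69 CPM, KO:HET livers 0.201, 0.905 and 5.83 CPM and KO:HOM livers 3.61, 5.22 and 12.2 CPM. Both homozygous groups stood above their wild-type groups without overlap, and the wild-type values rested on 1 to 26 reads. It rose 32.2-fold in DN:HOM (log2 5.01, SE 0.54, adjusted p = 1.1e-10) and 8.20-fold in KO:HOM (log2 3.04, SE 0.50, adjusted p = 2.8e-05). The difference of 1.97 (SE 0.74, adjusted p = 0.034) was lost when any one of DN:WT animals 28, 2 or 7 or KO:WT animals 14, 23 or 32 was left out, with values of 1.72 to 1.90. Ms4a7 rose 4.97-fold in DN:HOM over all 48 livers (log2 2.31, SE 0.68, adjusted p = 0.0051), where the difference was -0.72, not called.

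The tetraspanin gene Cd9 rose in DN:HOM livers and was not called in KO:HOM livers. It was at 9.25, 12.9 and 18.2 CPM in DN:WT, 8.96, 14.7 and 19.7 CPM in DN:HET and 61.0, 95.1 and 121 CPM in DN:HOM livers. In the knockout study it was at 7.90, 11.5 and 14.8 CPM in KO:WT, 6.46, 8.89 and 19.2 CPM in KO:HET and 6.22, 8.68 and 17.6 CPM in KO:HOM livers. The 5 groups other than DN:HOM overlapped one another. Cd9 rose 7.23-fold in DN:HOM (log2 2.85, SE 0.22, adjusted p = 1.9e-14), or 3.41-fold over all 48 livers (log2 1.77, SE 0.37, adjusted p = 2.2e-04), and its log2 change in KO:HOM was -0.01 (95% interval -0.42 to 0.41, adjusted p = 0.99). The effects differed by 2.86 (SE 0.30, adjusted p = 6.4e-10), and over all 48 livers by 1.77 (SE 0.53, adjusted p = 0.027), the one difference of the 10 that was called in both fits.

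Among the secreted proteins, Spp1 (osteopontin, a matrix protein and cytokine that binds integrins and CD44) was at 21.99, 33.5 and 62.0 CPM in DN:WT, 25.6, 45.7 and 212 CPM in DN:HET and 661, 826 and 1003 CPM in DN:HOM livers. DN:HOM livers were far above the rest, and the DN:HET median was close to that of DN:WT, with animals 22 and 4 well above. KO:WT livers had 14.9, 27.1 and 88.8 CPM, KO:HET livers 20.9, 28.1 and 56.7 CPM and KO:HOM livers 31.2, 77.1 and 171 CPM. There the homozygotes overlapped the wild-type livers, and 4 of 8 exceeded the highest of them, animal 23. Spp1 rose 23.7-fold in DN:HOM (log2 4.57, SE 0.45, adjusted p = 9.4e-12) and 2.68-fold in KO:HOM (log2 1.42, SE 0.37, adjusted p = 0.0047), and the effects differed by 3.14 (SE 0.54, adjusted p = 1.4e-05). In the fit of all livers Spp1 rose 4.46-fold in DN:HOM (log2 2.16, SE 0.64, adjusted p = 0.0055), its KO:HOM change of 1.42 had an adjusted p of 0.14, and the difference of 0.73 was not called.

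Lgals3, the gene of galectin-3, which binds sugar chains on damaged membranes and on the cell surface, had 2.79, 5.65 and 9.67 CPM in DN:WT, 6.18, 11.8 and 45.5 CPM in DN:HET and 50.3, 104.2 and 132 CPM in DN:HOM livers. It had 2.27, 5.54 and 13.3 CPM in KO:WT, 2.30, 4.70 and 15.3 CPM in KO:HET and 10.1, 26.9 and 51.9 CPM in KO:HOM livers. DN:HOM was clear of the other knock-in groups, and 6 of 8 KO:HOM livers were above all KO:WT livers. Lgals3 rose 16.9-fold in DN:HOM (log2 4.08, SE 0.47, adjusted p = 6.8e-10) and 4.41-fold in KO:HOM (log2 2.14, SE 0.42, adjusted p = 2.3e-04), with a difference of 1.94 (SE 0.61, adjusted p = 0.011). All 48 livers together gave a DN:HOM change of 4.53-fold (log2 2.18, SE 0.59, adjusted p = 0.0028) and a difference of 0.04, not called.

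Fabp5, a carrier of fatty acids inside cells, moved least in DN:HOM livers. It was at 6.54, 16.3 and 28.8 CPM in DN:WT, 4.58, 8.45 and 21.6 CPM in DN:HET and 38.0, 48.9 and 66.1 CPM in DN:HOM livers. KO:WT livers spread from 7.13 to 50.6 CPM (median 14.7), KO:HET livers from 3.55 to 9.51 CPM (median 6.84) and KO:HOM livers from 10.3 to 42.6 CPM (median 14.3). The KO:WT range contained that of KO:HOM, while every KO:HOM liver was above every KO:HET liver. Fabp5 rose 3.19-fold in DN:HOM (log2 1.67, SE 0.37, adjusted p = 1.3e-04), and in KO:HOM its log2 change was -0.09 (95% interval -0.76 to 0.58, adjusted p = 0.89). The effects differed by 1.76 (SE 0.50, adjusted p = 0.0049). Fabp5 rose 2.01-fold in DN:HOM over all 48 livers (log2 1.01, SE 0.40, adjusted p = 0.034), and the difference of 1.09 was not called.

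**Figure D2:**
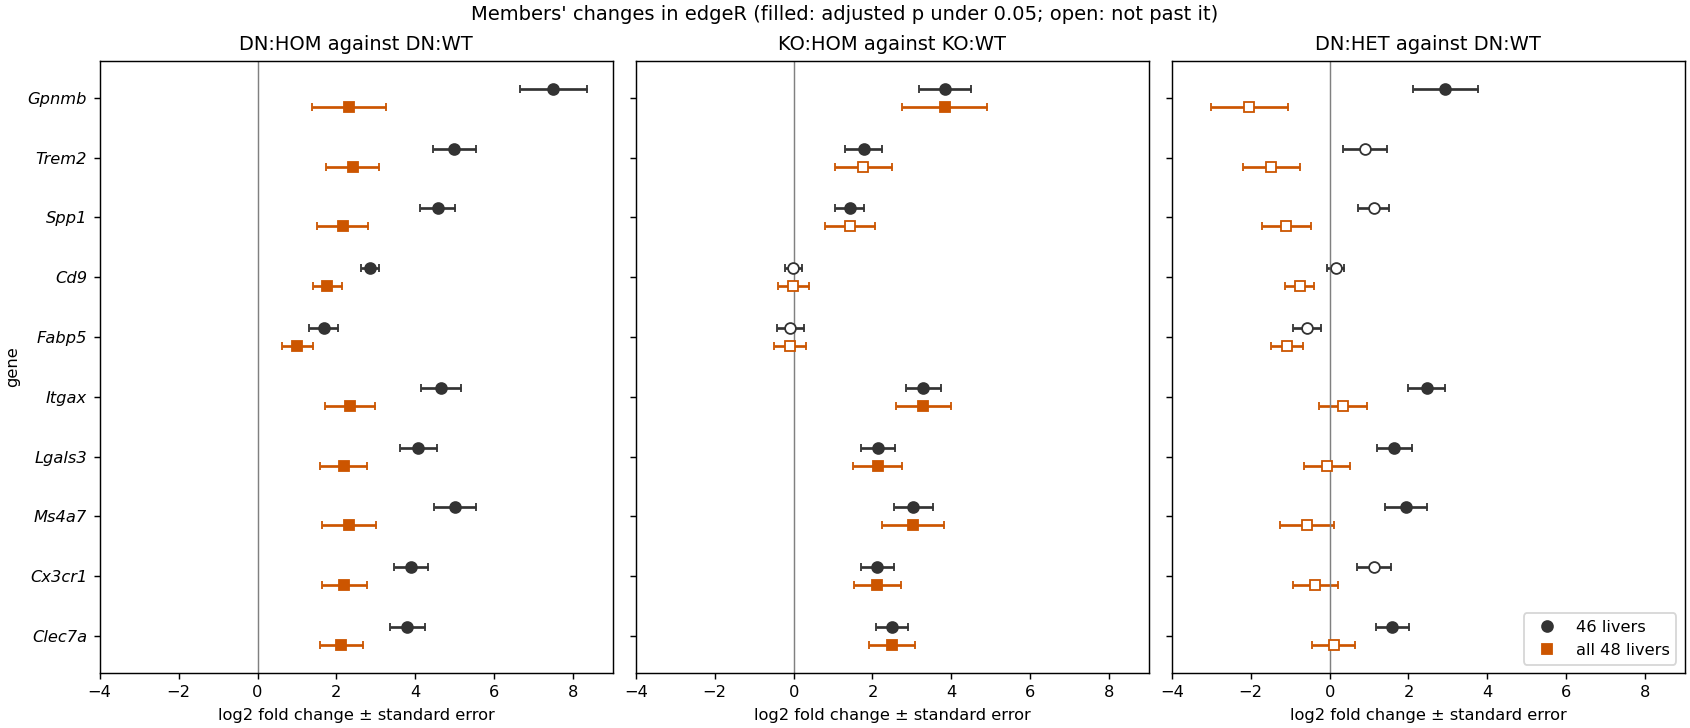
Log2 fold changes of the 10 genes with standard errors in DN:HOM against DN:WT, KO:HOM against KO:WT and DN:HET against DN:WT, over 46 livers (circles) and all 48 (squares), filled where the adjusted p was under 0.05. In KO:HOM the values of both fits lie together and Cd9 and Fabp5 lie at 0, whereas in DN:HET the values of 7 genes change sign with the 2 livers.

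The difference between the homozygous effects was called for 8 of the 10 genes, all larger in DN, against 16.5% of all genes called larger in DN. Over all 48 livers it was called for Cd9 alone (4.05% of genes), so the larger DN effect of the other 7 depends on leaving out animals 10 and 12. Compared per kilobase of the main transcript, the order of the levels also differed between groups. In DN:WT livers the highest medians were those of Fabp5 (16.5 CPM per kilobase), Spp1 (15.03) and Cd9 (10.2), and Gpnmb was the lowest at 0.194, although the ranges of all 9 neighbouring pairs overlapped. In DN:HOM livers Spp1 led with a median of 370.5 CPM per kilobase and a lowest liver at 296, above the highest value of Clec7a, 106. Clec7a (89.1), Lgals3 (75.7), Cd9 (74.8), Fabp5 (49.2) and Gpnmb (46.6) followed, each overlapping the next. After a gap came Trem2 (29.95) and Ms4a7 (22.1), and after another Itgax (9.95) and Cx3cr1 (6.85). In KO:HOM livers Spp1 (34.6) and Clec7a (34.01) were level, and all neighbours overlapped.

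The heterozygous knock-in mice were compared with the same DN:WT livers as the homozygotes, so these comparisons are not independent, and the same holds for KO:WT in the knockout study. In DN:HET livers 5 of the 10 genes were called higher, against 2.23% of all genes. These were Itgax (5.49-fold, log2 2.46, SE 0.48, adjusted p = 0.0060), Gpnmb (log2 2.94, SE 0.83, adjusted p = 0.044), Ms4a7 (log2 1.94, SE 0.53, adjusted p = 0.038), Lgals3 (log2 1.63, SE 0.44, adjusted p = 0.036) and Clec7a (log2 1.59, SE 0.42, adjusted p = 0.031). Cx3cr1 (log2 1.13), Spp1 (1.12), Trem2 (0.90), Cd9 (0.15) and Fabp5 (-0.58) did not pass. The group was uneven. Animal 22 was the highest DN:HET liver for 9 genes and animal 4 for the tenth, Clec7a, and these 2 livers were the top pair for 9 of the 10. Their Itgax was at 26.4 and 21.8 CPM, and the next liver was at 7.37 CPM. When each of the 15 livers was left out in turn, Itgax kept its call every time, with log2 values of 1.996 to 2.619. Lgals3, Ms4a7 and Clec7a kept theirs in 7 of 15 refits and Gpnmb in 5, and the calls of all 4 were lost without DN:HET animal 22 (adjusted p 0.17 to 0.24) or animal 4 (0.16 to 0.17), or without any one of DN:WT animals 13, 21, 28, 2, 5 and 7 (0.052 to 0.11). Gpnmb was also lost without DN:HET animal 16 (adjusted p = 0.051) or 29 (0.063). Over all 48 livers 0 of the 10 were called by edgeR (0.25% of genes called higher), with 4 lower at an unadjusted p under 0.05. The median of the 10 was -0.66, with the library labelled DN:WT animal 10 among the controls.

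Some markers of macrophages and other immune cells were also called higher in DN:HET livers, against 2.23% of all genes. Their part in the calls of the 10 genes was not tested. Pan-macrophage genes were called for 3 of 12, monocyte genes for 2 of 6 tested and neutrophil genes for 1 of 7 tested. B cell genes were called for 0 of 5 by edgeR, DESeq2 and an unadjusted p under 0.05 alike. T and NK cell genes were called for 5 of 8 (median 1.964, against 0.913 in DN:HOM), led by Nkg7 (2.49, SE 0.56) and Cd3g (2.48, SE 0.55). Dendritic cell genes, of interest beside Itgax and Clec7a, were called for 3 of 8, Xcr1 (2.72, SE 0.64), Flt3 (2.69, SE 0.61) and Ccr7 (1.91, SE 0.52). The summed dendritic cell level was 12.6 to 46.9 CPM in DN:HET livers against 10.6 to 14.6 CPM in DN:WT and 18.2 to 23.05 CPM in DN:HOM, and that of T and NK cell genes 3.68 to 32.2 CPM against 2.64 to 4.71 and 4.53 to 7.37 CPM. Animal 22, the highest DN:HET liver for 9 of the 10 genes, was the highest for both sums. Fitted over all 48 livers, where 0.25% of all genes were called higher, 2 T and NK cell genes were called. By edgeR 0 dendritic cell genes were called, with 4 higher at an unadjusted p under 0.05. EdgeR also called 0 pan-macrophage, monocyte, neutrophil and B cell genes there. At an unadjusted p under 0.05, 4, 2, 1 and 0 of these were higher, and 1 pan-macrophage gene was lower.

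DN:HOM livers were called higher than DN:HET livers for all 10 genes over 46 livers (26.1% of genes) and over 48 (21.5%). The changes ran from 2.20 for Itgax to 4.57 for Gpnmb on the log2 scale. For Trem2 the step was 16.9-fold (log2 4.08, SE 0.48, adjusted p = 1.3e-09) and for Cd9 6.52-fold (log2 2.70, SE 0.21, adjusted p = 2.1e-14).

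In KO:HET livers edgeR called 0 of the 10 genes over 46 livers (0.0127% of genes called higher) and 0 over 48 (0.0128%), and DESeq2 called 1, Fabp5, as lower. At an unadjusted p under 0.05 were 2, Ms4a7 (log2 1.13, SE 0.54) and Fabp5 (log2 -1.58, SE 0.36, adjusted p = 0.20). Animal 9 was the highest KO:HET liver for 9 of the 10 genes, with Gpnmb at 31.1 CPM where the next liver had 3.33 CPM. KO:HOM livers were called higher than KO:HET livers for 9 of the 10 genes, all but Cd9 (log2 0.14, 95% interval -0.28 to 0.56), against 7.24% of genes. The values ran from 1.42 for Spp1 to 3.07 for Gpnmb, and Fabp5 was 2.81-fold higher (log2 1.49, SE 0.36, adjusted p = 0.0061). Without KO:HET animal 9 the change of Gpnmb was 5.15, that of Trem2 3.20 in place of 1.87 and that of Ms4a7 2.52 in place of 1.91. Over all 48 livers 4 of these calls were made (3.58% of genes), those of Fabp5, Itgax, Lgals3 and Clec7a. The log2 values of the 5 lost were nearly the same in both fits, at 3.07 and 3.08 for Gpnmb and 1.87 and 1.88 for Trem2, with standard errors of 1.03 and 0.74 in place of 0.63 and 0.48.

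**Figure D3:**
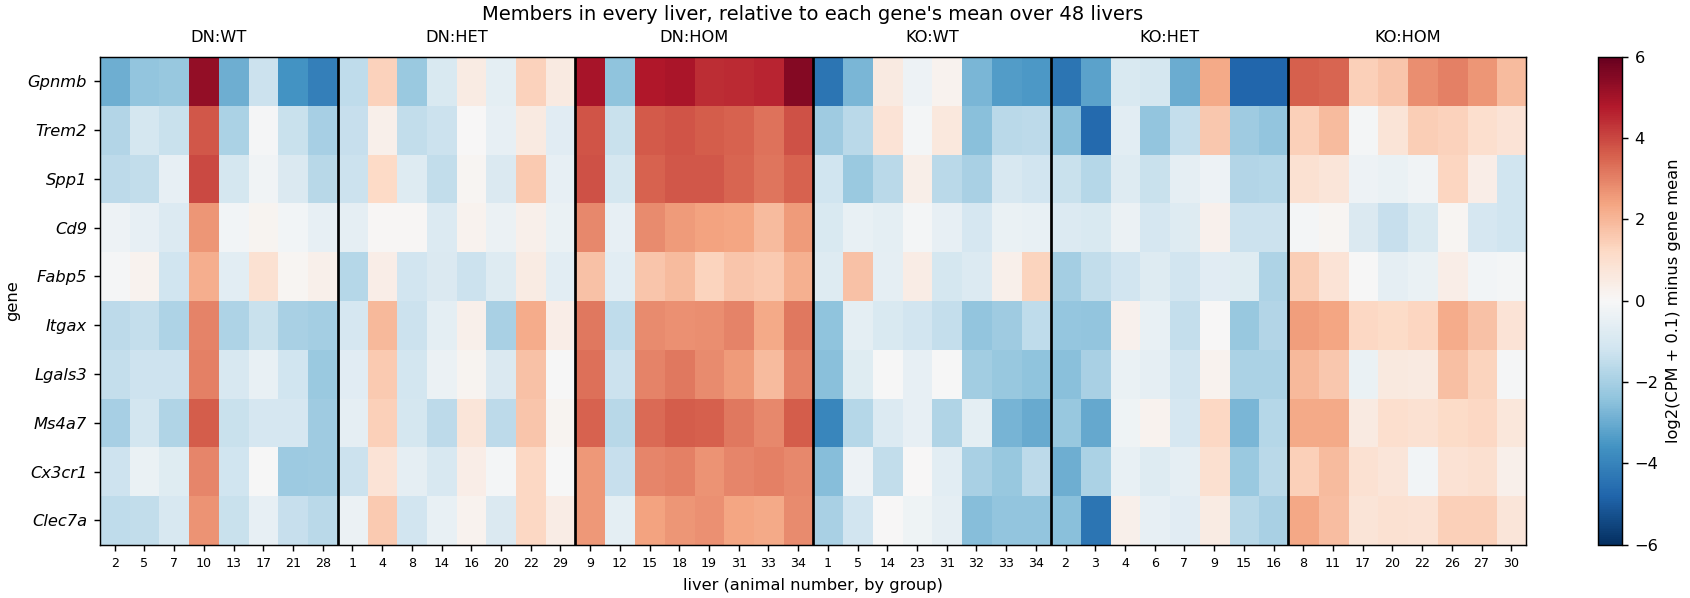
Each of the 10 genes in each liver as log2(CPM + 0.1) minus the mean of the gene over 48 livers, with livers in columns by group and animal number. All genes are high in DN:HOM livers except animal 12 and in DN:WT animal 10, DN:HET animals 4 and 22 and KO:HET animal 9 are the high livers of their groups, and KO:HOM animals 8 and 11 are high for most genes.

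Within a genotype the genes mostly varied together from liver to liver. KO:HOM animals 8 and 11 were each among the 2 highest livers for 8 of the 10 genes, DN:WT animal 17 was the highest of its group for 9, and DN:HOM animal 33 was the lowest of its group for 7. After removing each group's mean, the correlation of a gene with the mean of the other 9 over 46 livers was highest for Lgals3 (r = 0.89) and Itgax (0.87) and lowest for Fabp5 (0.47), followed by Cd9 (0.69) and Spp1 (0.70). In DN:HOM livers alone Cx3cr1 ran against the rest (r = -0.49 over 7 livers). In KO:WT livers alone r was 0.015 for Fabp5 and 0.169 for Spp1, and in DN:WT livers it was 0.312 for Fabp5. These are descriptions over libraries that share scaling. By the same measure the 8 genes most like the mean of the 10, out of 13152 genes, were Cd68 (r = 0.92), a lysosomal macrophage protein, Ucp2 (0.92), Fxyd5 (0.91), Ctss (0.91), Cd53 (0.91), Cd63 (0.91), Myo1f (0.90) and Iqgap1 (0.90). Without the 2 highest livers these values were 0.88 to 0.92, and within single groups the lowest was 0.302, for Iqgap1. Cd63, a lysosomal tetraspanin, changed by 4.71 in DN:HOM and 1.64 in KO:HOM livers and Ctss, the protease cathepsin S, by 3.21 and 2.60.

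Other genes of the lipid-associated state did not all follow the 10. Of 20 further genes, 13 rose and 4 fell in DN:HOM livers, with a median of 1.07, and 9 rose and 1 fell in KO:HOM livers, with a median of 0.37. Among all genes tested 30% were called lower in DN:HOM and 7.87% in KO:HOM, beside the shares called higher given above. With all 48 livers the counts were 13 and 3 in DN:HOM and 4 and 1 in KO:HOM, and 25% and 4.12% of all genes were called lower. The largest rises in DN:HOM were those of Cd63, Mmp12, a macrophage elastase (log2 4.57, SE 0.62), Atp6v0d2, a subunit of the acid pump of lysosomes (3.91, SE 0.31), and Il1rn, the interleukin-1 receptor antagonist (3.68, SE 0.40). In KO:HOM livers they were those of Ctss, Mmp12 (2.11, SE 0.55), Capg, an actin-capping protein (2.09, SE 0.45) and Cd68 (1.89, SE 0.36). The 4 that fell in DN:HOM were Cd36, a fatty acid receptor (-1.55, SE 0.31), Apoe (-0.90, SE 0.30), Plin2, a lipid droplet coat protein (-0.88, SE 0.18), and Lipa, the lysosomal acid lipase (-0.44, SE 0.13), and these were singled out after their values were seen. Every DN:HOM change of these genes was nearer to 0 over all 48 livers, at 2.24 for Cd63, 2.23 for Mmp12, 1.94 for Atp6v0d2 and 2.02 for Il1rn, and the calls of Apoe in DN:HOM (adjusted p = 0.056) and of Cd63 (0.078) and Mmp12 (0.060) in KO:HOM were lost.

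Of 20 receptors, ligands and signalling partners of the 10 proteins, 18 rose and 1, Cd81, fell in DN:HOM livers (median 1.63), and 15 rose and 0 fell in KO:HOM livers (median 1.32). Cx3cl1, the fractalkine that binds CX3CR1, rose by 4.31 (SE 0.35) in DN:HOM livers, Cd44, a receptor of osteopontin, by 2.70 (SE 0.38), Hcst, an adaptor like that of Tyrobp, by 2.66 (SE 0.48) and Itgb2, the integrin chain that pairs with CD11c, by 2.49 (SE 0.46). In KO:HOM livers the largest were Itga4 (2.38, SE 0.41), Itgb2 (2.32, SE 0.43), Hcst (2.14, SE 0.46) and Syk, the kinase downstream of TREM2 and Dectin-1 signalling (2.12, SE 0.34). With all 48 livers 18 rose in DN:HOM (median 1.12) and 13 in KO:HOM, and the DN:HOM changes were 2.36 for Cx3cl1, 1.73 for Cd44, 2.10 for Hcst and 1.57 for Itgb2. Neighbours of Ms4a7 in the Ms4a cluster rose in both, 6 of 8 in DN:HOM (1 fell, Ms4a8a) and 7 of 8 in KO:HOM, led by Ms4a14 (5.12, SE 0.62 and 3.45, SE 0.68) and Ms4a4a (4.11, SE 0.66 and 3.05, SE 0.64), and over all 48 livers 5 and 7 of the 8 rose, with DN:HOM changes of 2.35 for Ms4a14 and 2.13 for Ms4a4a. Of the 4 MiT/TFE factors, known as regulators of lysosomal genes, 2 were called in DN:HOM and 1 in KO:HOM (29.1% and 11.5% of all genes), too few genes to set apart from those shares. Mitf (0.68, SE 0.18) and Tfe3 (0.43, SE 0.09) rose in DN:HOM and Tfec (0.93, SE 0.34, adjusted p = 0.049) in KO:HOM livers, where over all 48 livers 0 did by edgeR (Tfec, adjusted p = 0.063).

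Markers of other cells moved with the 10 genes, and their part in the results was not tested. The summed level of 12 pan-macrophage genes was 266 to 486 CPM in DN:WT, 274 to 1695 in DN:HET, 1211 to 1914 in DN:HOM, 198 to 445 in KO:WT, 189 to 623 in KO:HET and 459 to 1666 CPM in KO:HOM livers. Animals 22 of DN:HET and 9 of KO:HET were the highest of their groups here too. Of these 12 genes 11 rose in each homozygous group, with Cd14 (5.23, SE 0.53) and Lyz2 (4.28, SE 0.57) leading in DN:HOM and Itgam (2.57, SE 0.59) and Lyz2 (2.57, SE 0.50) in KO:HOM livers. The count over all 48 livers was 9 in each, and Cd14 was at 2.25 and Lyz2 at 2.10 in DN:HOM. Kupffer cell markers went the other way for 8 of 10 in DN:HOM (median -4.56) and 5 of 10 in KO:HOM livers (median -0.74), while Id3 rose in DN:HOM (0.88, SE 0.26, adjusted p = 0.0039). With animals 10 and 12 included 8 fell in DN:HOM (median -2.72), with Id3 again higher, and 4 in KO:HOM. Clec4f changed by -7.74 and -1.18, Cd5l by -7.67 and -6.69, Timd4 by -6.22 and -2.29 and Cd163 by -6.52 and -2.12 in DN:HOM and KO:HOM over 46 livers, and the DN:HOM changes over all 48 were -3.23, -3.15, -3.02 and -2.98. Macrophages carried the alleles too, and fewer Kupffer cells and less of these RNAs per cell cannot be told apart here. In DN:HET livers 0 of the Kupffer markers fell by edgeR, by DESeq2 or at an unadjusted p under 0.05. Marco rose there (3.06, SE 0.78, adjusted p = 0.026), a call that was lost over all 48 livers (3.26, adjusted p = 0.056). Of the 10 genes 5 were called higher in DN:HET livers over 46 livers and 0 over all 48 (2.23% and 0.25% of all genes). Monocyte genes rose for 5 of 6 tested in each homozygous group, led by Vcan (3.91, SE 0.60) in DN:HOM and Chil3 (2.77, SE 0.59) in KO:HOM livers, and their sum was highest in DN:HET animal 4 (95.8 CPM, against 45.0 to 60.3 CPM in DN:HOM livers). With all 48 livers 5 monocyte genes rose in DN:HOM, Vcan by 2.05, and 4 in KO:HOM.

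Some markers of cells outside the macrophage line also changed, in DN:HOM livers, KO:HOM livers or both. All 7 cholangiocyte markers rose in DN:HOM livers, with Cftr at 4.01 (SE 0.51) and Epcam at 4.004 (SE 0.35), and 1 of 7, Pkhd1 (0.62, SE 0.14), rose in KO:HOM. Their summed level was 24.8 to 35.3 CPM in DN:WT, 26.8 to 37.9 in DN:HET, 87.5 to 107 in DN:HOM and 27.02 to 35.9 CPM in KO:HOM livers. DN:HOM livers, where Cd9 was high, stood apart in other sums too. Stellate cell genes summed to 533 to 758 CPM there, against at most 281 CPM in any other group. Proliferation genes summed to 59.7 to 96.8 CPM, against at most 46.3 CPM. The neutrophil sum, 33.5 to 88.8 CPM, overlapped that of DN:HET livers, which reached 45.2 CPM. Whether any of these cells gave the Cd9 rise was not tested. Neutrophil genes rose for 7 of 7 tested in DN:HOM and 4 of 7 in KO:HOM livers, stellate cell genes for 9 of 10 and 5 of 10, proliferation genes for 8 of 8 and 2 of 8, dendritic cell genes for 5 of 8 and 7 of 8, and T and NK cell genes for 4 of 8 and 7 of 8. Endothelial genes rose for 1 and fell for 5 of 8 in DN:HOM and rose for 1 and fell for 1 in KO:HOM, and B cell genes fell for 2 of 5 in DN:HOM and, by edgeR, DESeq2 and an unadjusted p under 0.05 alike, for 0 of 5 in KO:HOM. Of 8 hepatocyte genes 6 fell and 1 rose in DN:HOM and 5 fell in KO:HOM livers, with Alb at -1.15 (SE 0.13) and -0.43 (SE 0.12). These counts stand beside the 29.1% of all genes called higher and 30% called lower in DN:HOM, and the 11.5% and 7.87% in KO:HOM. Fitted over all 48 livers, the counts in DN:HOM and KO:HOM were 6 and 1 for cholangiocyte genes (Cftr at 2.07 and Epcam at 2.39 in DN:HOM), 5 and 2 for neutrophil, 9 and 1 for stellate cell, 4 and 4 for dendritic cell and 1 and 7 for T and NK cell genes. Proliferation genes then rose for 6 in DN:HOM and 0 in KO:HOM by edgeR, with 2 at an unadjusted p under 0.05. Endothelial genes rose for 0 and fell for 5 in DN:HOM, B cell genes fell for 0, with 2 at an unadjusted p under 0.05, and hepatocyte genes fell for 6 in DN:HOM and 2 in KO:HOM, where Alb was at -0.43 (adjusted p = 0.095). The neutrophil marker Ly6g was at 0 in every one of the 46 livers that was wild-type or heterozygous, and the monocyte gene S100a4 in every DN:WT, KO:WT and KO:HOM liver among them.

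**Figure D4:**
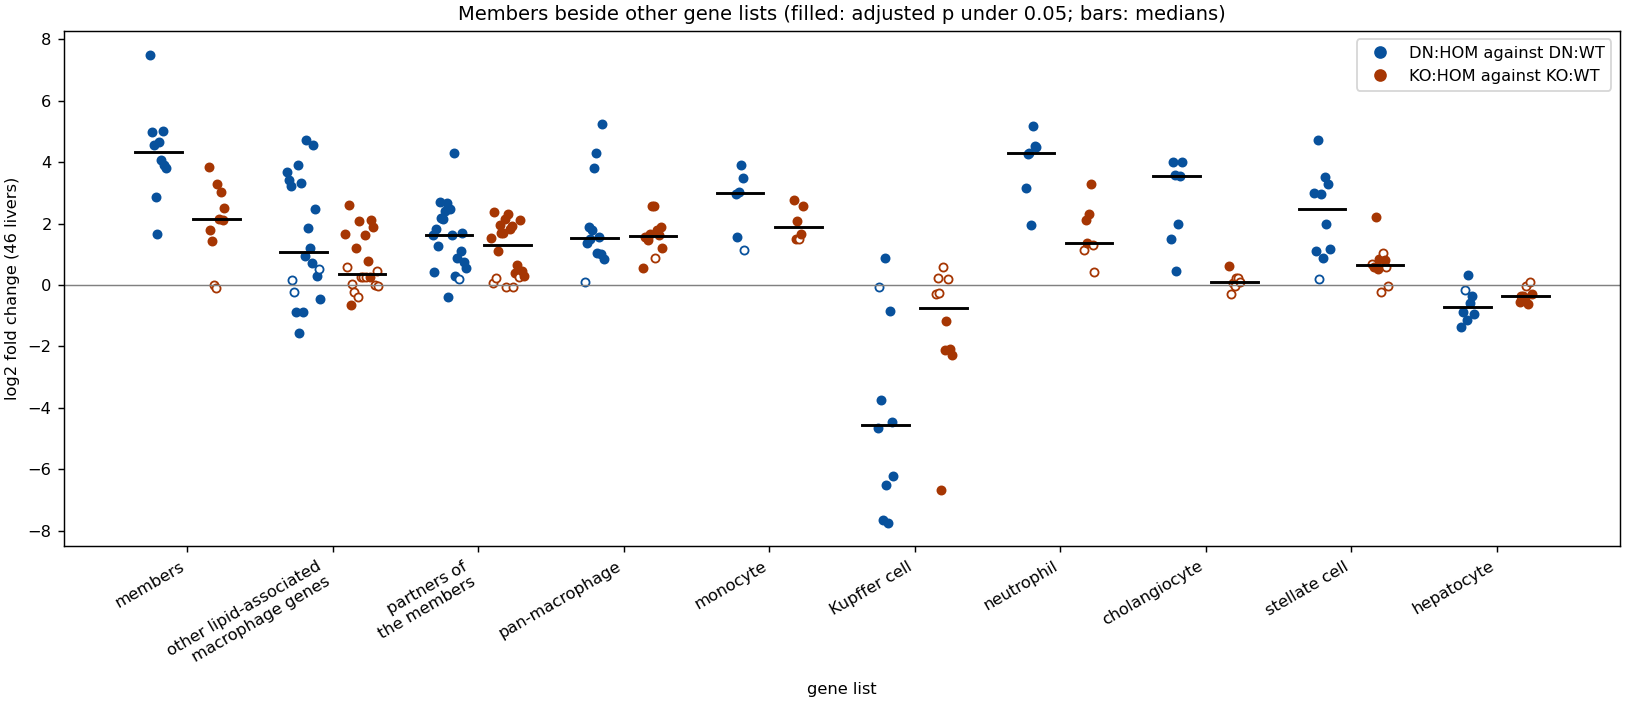
Log2 fold changes over 46 livers of the 10 genes and of the genes in 9 other lists in DN:HOM against DN:WT (blue) and KO:HOM against KO:WT (brown), filled where called, with bars at the medians. The 10 genes, their partners and pan-macrophage and monocyte genes lie mostly above 0 in both comparisons, Kupffer cell genes mostly below 0, and cholangiocyte genes lie above 0 in DN:HOM and near 0 in KO:HOM.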

How the data were processed

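Stranded libraries of polyA RNA were sequenced from 48 livers. Per the labels, the authors aligned reads with STAR 2.5.0a to GRCm39 and deposited raw counts of reads per gene, without normalization, for each strand and both together. Counts of a gene's own strand entered the tests, and their total exceeded that of the other strand by 6.97 to 8.62 times. Lines that name no gene held 24.0% to 35.0% of reads and were left out. Symbols came from a later GENCODE release and matched 54749 of 55416 identifiers (98.8%). No pair of livers of the same group held identical counts, and pairs across groups were not compared. Groups came from the genotype labels. Mice were separate animals, and the labels give no litters or cages, so p-values measure the spread between mice only. Part of the knock-in diet cohort ended early, and the labels do not say whether any of these livers belong to it.

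The tests used edgeR 4.0.16 under R 4.3.3 (filterByExpr, TMM, a mean for each of 6 groups, quasi-likelihood F test, Benjamini-Hochberg over all genes, threshold 0.05). The main fit used 46 livers. DN:WT animal 10 and DN:HOM animal 12 were left out because the published source data of a bile acid gene panel hold 7, 8 and 7 knock-in livers, which matched the other animals to within 0.000476% in 2 genes. A published heat map of the same libraries gives 8 livers per group. Every fitted comparison was also computed over 48 livers, while levels by group, overlaps, level orders and correlations use 46. Standard errors of the edgeR fits were computed as the absolute log2 fold change divided by the square root of the F statistic. Intervals are 1.96 of these standard errors to each side and cover the model error only. On simulated data for KO:HOM against KO:WT (15365 genes) the fit called 83% of genes altered by a log2 of 1, 99% of those altered by 2 and 13 of 15165 unchanged genes.

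The alternatives were all 48 livers, DESeq2 1.42.0, every gene without a filter, genes with a mean CPM of 1 or more, library size alone, unstranded counts, each study alone and leaving out livers under 10000000 reads. Leaving out each liver in turn was added after seeing the data. The 10 genes and the 16 gene lists were chosen with earlier results of these data known. Named from each list were up to 4 genes with the largest change among those called in a homozygous comparison, and by likeness the 8 genes with the highest correlation of group-centred log2 CPM (prior count 2, mean above 0). Cd36, Apoe, Plin2, Lipa, Cd81, Ms4a8a, Id3, Marco and the genes of the DN:HET marker lists were named after their values were seen. Promoters were read from GRCm39 at the main transcripts of the annotation. Python 3.11.15, numpy 2.4.6, pandas 2.3.3 and matplotlib 3.10.9 were used.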

Additional observations from a re-analysis of the deposited data

Results flagged for a closer look

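In groups of 8 livers, 1 liver stood far from the rest by Dixon's gap test in 20 of 60 gene and group pairs, where chance flags about 1 in 20 groups. The pairs are not independent, since the genes vary together. The library labelled DN:WT animal 10 was the high liver for all 10 genes, at 247 CPM for Gpnmb, 34.4 for Trem2, 1094 for Spp1, 103 for Cd9, 68.3 for Fabp5, 44.1 for Itgax, 110 (109.6) for Lgals3, 31.1 for Ms4a7, 25.4 for Cx3cr1 and 67.8 CPM for Clec7a. The library labelled DN:HOM animal 12 was the low liver for 5 genes, at 0.908 CPM for Trem2, 33.9 for Spp1, 0.699 for Ms4a7, 1.19 for Cx3cr1 and 6.85 CPM for Clec7a. KO:HET animal 9 was the high liver for 4 genes, at 31.1 CPM (31.05) for Gpnmb, 7.79 for Trem2, 5.83 for Ms4a7 and 6.53 CPM for Cx3cr1. KO:WT animal 23 was high for Spp1, at 88.8 CPM.

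The homozygous effects differed between the studies for 8 genes over 46 livers, DN minus KO on the log2 scale by 3.67 for Gpnmb, 3.21 for Trem2, 3.14 for Spp1, 2.86 for Cd9, 1.76 for Fabp5, 1.94 for Lgals3, 1.97 for Ms4a7 and 1.77 for Cx3cr1. Over all 48 livers Cd9 alone was called.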

How the results depend on the processing

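The 46 or 48 livers mattered most. Over all 48, the count of the 10 genes called fell to 0 in DN:HET against DN:WT, 4 in KO:HOM against KO:HET, 6 in KO:HOM against KO:WT and 1 in the difference between the studies. In both KO comparisons the log2 values of the lost calls moved little (3.07 to 3.08 for Gpnmb, 1.68 to 1.69 for Cx3cr1) and the standard errors rose. The DN:HET changes then turned to -2.04 for Gpnmb, -1.47 for Trem2, -1.10 for Spp1, -0.75 for Cd9, -0.074 for Lgals3, -0.56 for Ms4a7 and -0.36 for Cx3cr1, and the differences between the studies to -1.50 for Gpnmb, -0.94 for Itgax, -0.72 for Ms4a7 and -0.38 for Clec7a, none of them called. DESeq2 called 1 gene in KO:HET against KO:WT. With 1 liver left out the counts were 10 to 10 in DN:HOM against DN:WT and against DN:HET, 1 to 5 in DN:HET, 8 to 8 in KO:HOM against KO:WT, 0 to 0 in KO:HET, 9 to 9 in KO:HOM against KO:HET and 7 to 9 in the difference, where Clec7a was gained without KO:HOM animal 8. Library size alone also brought the differences of Clec7a (1.62, adjusted p = 0.026) and Itgax (1.68, adjusted p = 0.043) past the threshold, and DESeq2 the KO:HET change of Fabp5 (-1.58, adjusted p = 0.032). Uncalled values near 0 changed sign. In KO:HOM, Cd9 was at 0.009 with a mean CPM of at least 1, 0.006 with unstranded counts, 0.12 with library size alone, 0.00 with each study alone and 0.023 without the shallow livers, and Fabp5 at 0.053 with library size alone. In KO:HET, Spp1 was at 0.004 over 48 livers and with each study alone, 0.00 with DESeq2, 0.011 without the filter, 0.009 with a mean CPM of at least 1, 0.024 with library size alone and 0.063 without the shallow livers, Trem2 at 0.008 without them, and Lgals3 at -0.026 with DESeq2 and -0.015 with unstranded counts. Library size alone moved the median of all genes by 0.42 in DN:HOM against DN:WT. No paired analysis was possible because the labels give animal numbers that pair no livers across genotypes. Wild-type levels of Gpnmb, Trem2, Ms4a7 and Cx3cr1 rest on as few as 1 to 9 reads.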
